A study of Mus musculus with 12 samples.

Results

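The genes described here are Runx1, Runx2, Runx3, Cbfb, Runx1t1, Nras and Hras, the mouse genes of the RUNX transcription factors, their shared partner, the ETO protein and a pair of RAS proteins. They are 7 of the 24589 genes in the expression table, taken by gene symbol. All 7 passed the filter on low values, at least 1 TPM in at least 2 libraries, as did 11152 genes in all. TPM expresses how large a part of a library's transcripts a gene supplies once its length is taken into account, scaled to a sum of 1000000 per library.

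RUNX proteins bind DNA through the Runt domain, and CBFB, which does not bind DNA itself, holds that domain in its active form. RUNX1 with CBFB is needed to form blood stem cells, and the t(8;21) translocation of acute myeloid leukemia joins RUNX1, also called AML1, to RUNX1T1, also called ETO, a protein that recruits corepressors and histone deacetylases. AML1-ETO9a is a shortened form of that fusion with strong leukemic activity in mice. RAS proteins are membrane-bound switches that pass signals from growth factor receptors to the ERK and PI3K pathways, and activating NRAS mutations are frequent in acute myeloid leukemia.

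The study measured mRNA in NRAS/AE9a leukemic cells, a mouse model of acute myeloid leukemia whose name stands for NRAS and AML1-ETO9a, in wild-type (WT) cells and in Tet2 knockout (KO) cells. TET2 oxidises 5-methylcytosine, and the series asks about its action on mRNA in leukemic stem cells and homing. Each genotype had 3 groups of 2 libraries, given 5 µg/ml of actinomycin D, which stops transcription, for 0, 4 or 8 h. All 6 groups shared the leukemic background and a medium with SCF, IL-3, IL-6, G418 and puromycin. Only 1 line of each genotype appears in the labels, with no promoter, vector or species given for the transgenes. The knockout and other differences that the KO cells may have from the WT cells therefore cannot be told apart. Whether the 2 libraries of a group are separate cultures is not stated, and p-values then reflect the spread of these libraries alone, possibly only technical spread. Human or mouse transgene RNA could add reads to mouse Nras, Runx1 or Runx1t1 in these tables, and its part in the values below was not tested.

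Between 9093 and 10827 genes reached 1 TPM in a library, and the sequencing depth is unknown because every column is a share. Across genes, Pearson's r was 0.991 to 0.994 within groups and 0.974 at most between groups. All 8 markers of acute myeloid leukemia cells reached 1 TPM, with a sum of 1034 to 1514 TPM. Lymphoid (T and NK, and B) and stromal or endothelial marker lists had 0 of 4 at 1 TPM each, and Cd3d, Ncr1 and Pax5 were listed at 0 throughout. Of 4 erythroid markers only Hba-a1 reached 1 TPM, and the sum of the list was 0.21 to 7.5 TPM. Tet2 itself had 13.05 and 16.03 TPM in the WT and 10.19 and 10.16 TPM in the KO libraries at 0 h, a log2 difference of -0.47 ± 0.13 (standard error, SE; limma adjusted p = 0.0167), which missed the threshold when WT 0 h replicate 2 (0.105) or KO 0 h replicate 1 (0.0924) or 2 (0.096) was left out. Tet2 mRNA was thus still present in the KO cells, and since TPM per gene cannot tell exons apart, it is a weak check of the labels.

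The promoters of the 3 RUNX genes are shown first because they carry a feature that the genes share. The motif searched was TGTGGTT, 7 letters that RUNX proteins recognise, or AACCACA on the opposite strand. Only exact matches to these letters were searched. The lines give the upstream promoter of each gene from RefSeq (GRCm38.p6), 5′ to 3′ on the gene's strand, from 250 bases before to 50 bases after the transcription start. Runx1 lies at chr16:92826025-92826324 on the minus strand, Runx2 at chr17:44814578-44814877 on the minus strand and Runx3 at chr4:135120395-135120694 on the plus strand. Capitals mark the motif.
Runx1 upstream promoter: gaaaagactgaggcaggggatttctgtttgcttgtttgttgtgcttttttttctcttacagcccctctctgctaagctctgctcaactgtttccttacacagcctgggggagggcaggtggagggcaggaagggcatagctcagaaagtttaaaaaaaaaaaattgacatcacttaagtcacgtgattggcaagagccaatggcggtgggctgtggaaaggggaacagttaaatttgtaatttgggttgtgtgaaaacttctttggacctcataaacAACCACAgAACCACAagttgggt
Runx2 promoter: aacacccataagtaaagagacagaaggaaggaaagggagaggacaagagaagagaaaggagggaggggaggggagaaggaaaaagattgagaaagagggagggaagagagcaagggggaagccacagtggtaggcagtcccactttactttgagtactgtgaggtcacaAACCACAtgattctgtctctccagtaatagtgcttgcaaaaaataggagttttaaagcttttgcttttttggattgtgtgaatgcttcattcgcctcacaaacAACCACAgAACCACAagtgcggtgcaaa
Runx3 upstream promoter: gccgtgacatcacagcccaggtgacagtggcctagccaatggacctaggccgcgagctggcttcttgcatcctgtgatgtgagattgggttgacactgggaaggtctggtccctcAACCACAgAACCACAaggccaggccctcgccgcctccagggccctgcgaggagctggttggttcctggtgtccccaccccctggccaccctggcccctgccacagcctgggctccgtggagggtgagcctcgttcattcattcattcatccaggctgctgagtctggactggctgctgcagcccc

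Each of these 3 promoters held a pair of motifs that began 8 bases apart. The pair began at +27 and +35 from the start in Runx1, at +22 and +30 in Runx2 and at -135 and -127 in Runx3, and Runx2 held a further motif at -81. At least 1 motif was in 1731 of 32851 RefSeq promoters of the same length (5.27%), and 2 or more were in 67 (0.204%). A pair with this spacing was in 5 promoters (0.0152%), of which these are 3. The spacing was noticed after the sequences were seen, so its share is a description. The downstream promoters of Runx1 (chr16:92697280-92697579) and Runx3 (chr4:135152295-135152594) held no match, nor did those of Cbfb and Nras. The Hras promoter (chr7:141193955-141194254) held 1 match at -88, and 6 of the 7 genes were matched in the table, all but Runx1t1. A match is a run of letters and not a measured binding site.

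**Figure D1:**
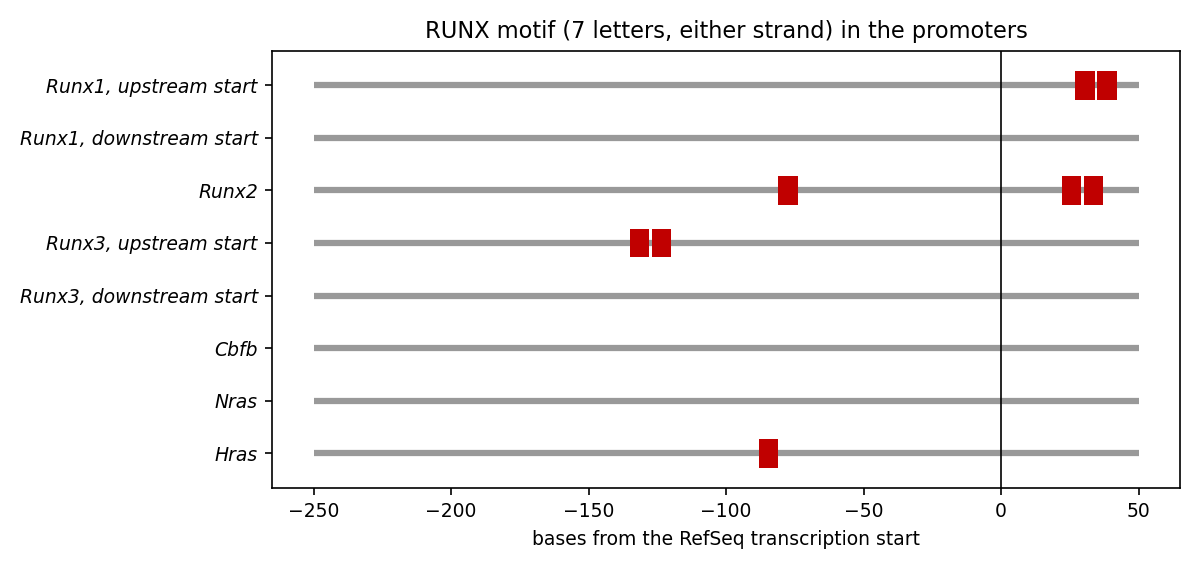
Position of the motif TGTGGTT or AACCACA in the promoters of the members, as bases from the RefSeq start (grey line, the window from 250 before to 50 after; red box, a match). The paired boxes lie after the start in Runx1 and Runx2 and before it in the upstream promoter of Runx3.

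At 0 h the core binding factor genes were well expressed, with Cbfb above Runx1 and Runx1 above its relatives. In WT cells the mean levels were 82.9 ± 9.82 TPM (SD, n = 2, as for the other means) for Cbfb, 64.8 ± 2.43 for Nras, 48.2 ± 8.21 for Runx1, 29.8 ± 3.83 for Runx1t1, 23.7 ± 5.52 for Hras, 13.7 ± 0.601 for Runx3 and 5.29 ± 0.269 for Runx2. Of the neighbours in that order, the libraries of Runx1t1 and Hras overlapped and those of the other neighbours did not. In KO cells the order was Cbfb at 95.8 ± 2.74, Nras at 70.9 ± 3.32, Runx1 at 51.2 ± 3.11, Hras at 33.3 ± 1.12, Runx1t1 at 16.6 ± 0.99, Runx3 at 15.3 ± 1.05 and Runx2 at 4.81 ± 0.389 TPM. There the libraries of Runx1t1 and Runx3 overlapped. These are bulk libraries, in which fewer cells that express a gene and less RNA per cell cannot be told apart.

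After 8 h of actinomycin D the order was different. In WT cells Runx1t1 stood at 43.4 ± 9.26 TPM and Nras at 43.1 ± 4.65, with overlapping libraries. Cbfb followed at 19.4 ± 1.61, Hras at 11.6 ± 1.25, Runx1 at 4.3 ± 0.467, Runx2 at 1.79 ± 0.396 and Runx3 at 1.15 ± 0.523 TPM, and only Runx2 and Runx3 overlapped among these. In KO cells Nras stood at 54.2 ± 0.134, Cbfb at 26.6 ± 1.29, Hras at 19.1 ± 0.481, Runx1t1 at 13.3 ± 0.148, Runx1 at 5.96 ± 0.318, Runx3 at 2.19 ± 0.269 and Runx2 at 1.57 ± 0.191 TPM, with no overlap between neighbours. Of the RUNX family, Runx1 gave a share of 0.582 to 0.734 of the summed TPM of the 3 genes in every library.

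**Figure D2:**
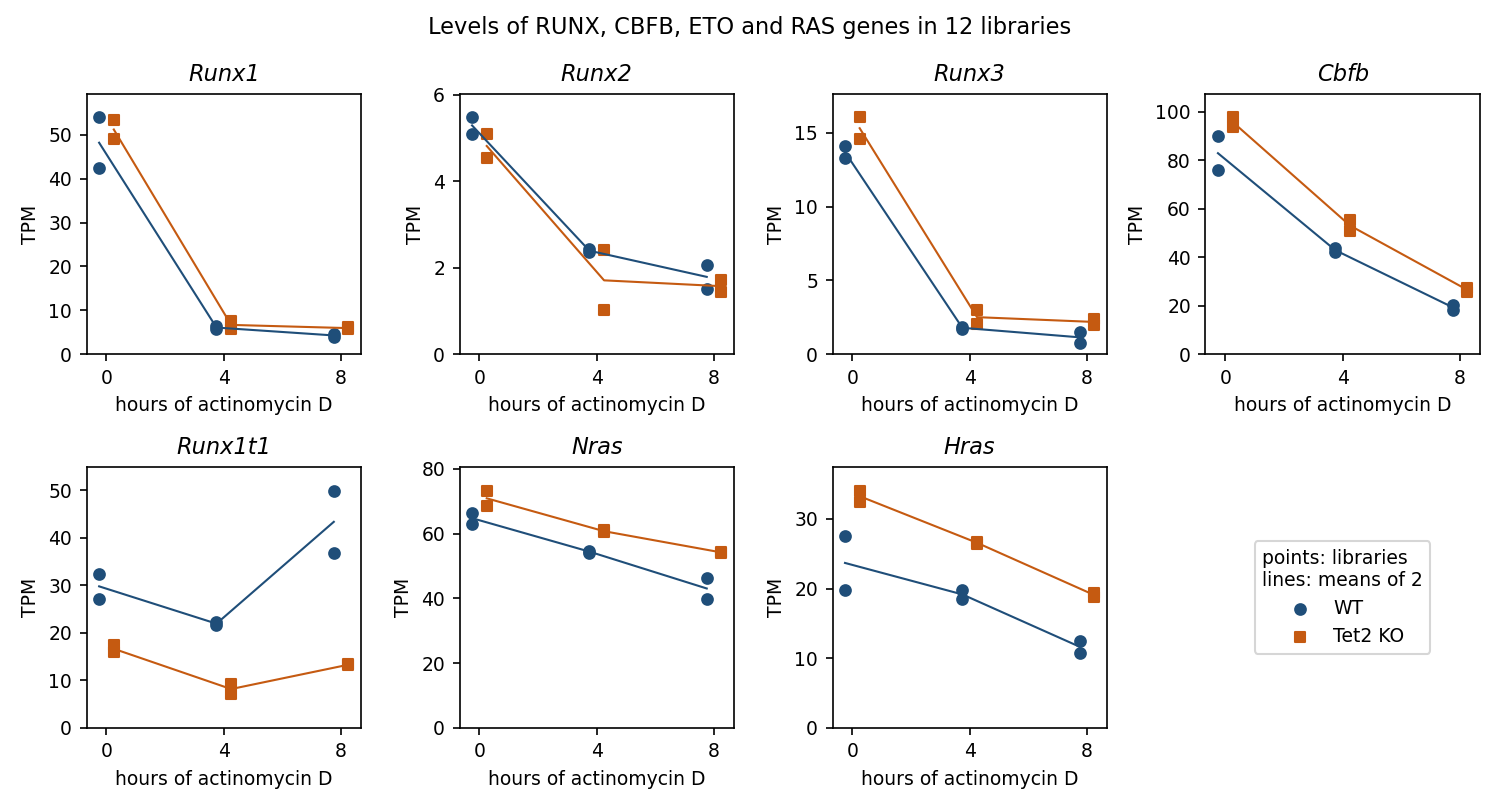
TPM of each gene (vertical axis, linear from 0) against hours of actinomycin D in WT cells (blue circles) and Tet2 KO cells (orange squares), 1 point per library with lines through the means of 2. Runx1 and Runx3 drop by 4 h, Cbfb declines through 8 h, and Runx1t1 in WT cells is higher at 8 h than at 4 h.

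The comparison of each time with 0 h asks how far each transcript fell once its synthesis was blocked. No added RNA standard is named, so a loss is measured against whatever else the library held. Over the genes with at least 5 TPM at 0 h, the median share of the 0 h level left in WT cells was 50.8% at 4 h and 28.1% at 8 h (8956 genes). In KO cells it was 57.5% and 35.6% (8910 genes). Tests used limma on log2(TPM + 1) over all 12 libraries, with Benjamini-Hochberg adjustment over the 11152 genes and a threshold of 0.05. The 4 h and 8 h changes of a genotype share its 0 h libraries.

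Runx1, the blood stem cell member of the family, lost most of its transcript within 4 h. In WT cells it went from 42.36 and 53.97 TPM before the drug to 5.84 and 6.35 after 4 h and 3.97 and 4.63 after 8 h. The KO libraries went from 53.37 and 48.97 TPM to 7.69 and 5.71, then 5.74 and 6.19. Every library at 4 or 8 h lay far under every library at 0 h in both genotypes. The mean left at 4 h was 12.7% of the 0 h mean in WT and 13.1% in KO cells, and at 8 h it was 8.93% and 11.7%. At 4 h the log2 change of Runx1 was -2.78 ± 0.15 in WT cells (SE; limma adjusted p = 1.17e-08) and -2.77 ± 0.15 in KO cells (adjusted p = 1.16e-08). Of all tested genes, 2.39% in WT and 2.91% in KO cells had a lower estimate at 4 h. From 4 to 8 h it changed by a further -0.42 ± 0.15 in WT cells (adjusted p = 0.0267). The late WT call did not hold with no filter (adjusted p = 0.0561), nor when WT 4 h replicate 1 (0.0542) or 2 (0.122) or WT 8 h replicate 1 (0.142) was left out, and it was 0.16 (0.324) under median-ratio scaling, which rescales each library by the median ratio over genes. In KO cells the late change was -0.13 ± 0.15 (adjusted p = 0.49).

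Runx3, which acts in lymphoid and myeloid cells, was lost to a like extent. It had 13.25 and 14.1 TPM in WT libraries untreated, 1.74 and 1.85 after 4 h, and 0.78 and 1.52 after 8 h. The KO libraries had 16.04 and 14.55 TPM, then 2.02 and 3.01, then 2 and 2.38. The libraries at 4 and 8 h did not reach those at 0 h in either genotype. The share left was 13.1% in WT and 16.4% in KO cells at 4 h, and 8.41% and 14.3% at 8 h. The log2 changes were -2.39 ± 0.18 in WT (adjusted p = 1.5e-07) and -2.23 ± 0.18 in KO cells (adjusted p = 2.98e-07) at 4 h. The change from 4 to 8 h did not pass the threshold in WT (-0.40 ± 0.18, adjusted p = 0.0785) or KO cells (-0.13 ± 0.18, adjusted p = 0.599), and WT 8 h replicate 2 decided the former, which was -0.65 without it (adjusted p = 0.0121).

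Runx2, best known as the factor of bone formation, was the lowest of the family at 0 h and fell less on this scale. It had 5.1 and 5.48 TPM in WT libraries untreated, 2.43 and 2.36 after 4 h, and 2.07 and 1.51 after 8 h. In KO libraries it had 5.09 and 4.54, then 2.4 and 1.02, then 1.44 and 1.71 TPM. Every treated library lay under the untreated ones of its genotype. The share left at 8 h was 33.8% in WT and 32.7% in KO cells, near the medians over genes given above. The log2 changes at 8 h were -1.18 ± 0.21 in WT (adjusted p = 0.000168) and -1.18 ± 0.21 in KO cells (adjusted p = 0.00019). Under median-ratio scaling none of the Runx2 changes from 0 h was called, with 0.09 in WT (adjusted p = 0.739) and -0.13 in KO cells (0.612) at 8 h, and -0.10 (0.709) and -0.44 (0.113) at 4 h. The added pseudocount of 1 TPM makes log2 changes understate losses at such levels.

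AU-rich elements, whose core is the pentamer ATTTA in DNA letters, are known marks of short-lived mRNAs when in the 3′ untranslated region. The 3′ untranslated region of Runx1 (GENCODE M21, GRCm38; 4189 nt) held 14 pentamers, more than in 97.2% of 10054 genes, whose medians were 2 pentamers and 1170 nt. Runx2 held 9 in 3904 nt, more than 91.3% of genes. Both regions are long, longer than those of 93.1% and 91.6% of genes, and in pentamers per kb Runx1 (3.34) exceeded 83.6% and Runx2 (2.31) 69.8% of genes. Runx1t1 and Nras each held 5 (3741 and 3727 nt), Cbfb 4 (2055 nt), Runx3 1 (2158 nt) and Hras 0 (2096 nt). Runx1 and Runx3 were the members with the least left at 4 h in both genotypes. Whether the pentamers bear on the loss of any of these transcripts was not tested. Sites of the RUNX genes are shown as windows of 30 bases of the transcript in DNA letters, with the pentamer in capitals and positions counted from the first base of the 3′ untranslated region.
Runx1, 540 to 569: tATTTAtgtatcttgatgtttgaacATTTA
Runx2, 833 to 862: aaagatatATTTAtaattATTTAatgacat
Runx3, 2079 to 2108: catcttgggtactATTTAactgtcaaacag

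Cbfb, the partner that RUNX proteins need, declined in TPM over both intervals. WT libraries had 75.92 and 89.81 TPM untreated, 43.69 and 42.13 after 4 h, and 18.26 and 20.53 after 8 h. KO libraries had 97.69 and 93.81, then 50.61 and 55.52, then 27.47 and 25.64 TPM. The 3 times did not overlap in either genotype. The share left at 4 h was 51.8% in WT and 55.4% in KO cells, and at 8 h 23.4% and 27.7%. The log2 change of Cbfb in WT cells was -0.93 ± 0.10 from 0 to 4 h (SE; limma adjusted p = 2.17e-06) and -1.11 ± 0.10 from 4 to 8 h (adjusted p = 1.1e-06). In KO cells it was -0.84 ± 0.10 (adjusted p = 6.05e-06) and then -0.97 ± 0.10 (adjusted p = 5.39e-06). Under median-ratio scaling the early change was not called and turned sign, at 0.06 in WT (adjusted p = 0.411) and 0.07 in KO cells (0.317), while the late one was -0.45 and -0.48, both past the threshold. The late change on TPM was among the deeper ones, with 12.3% of genes lower in WT and 12.6% in KO cells.

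Runx1t1, the ETO gene, behaved unlike the RUNX genes. WT libraries had 27.08 and 32.49 TPM untreated, 21.59 and 22.27 after 4 h, and 36.82 and 49.92 after 8 h. KO libraries had 17.34 and 15.94, then 9.19 and 7.14, then 13.4 and 13.19 TPM. In both genotypes both 8 h libraries lay above both 4 h libraries, and in WT cells they also lay above both 0 h libraries. The log2 change from 4 to 8 h was 0.94 ± 0.15 in WT (adjusted p = 0.000157) and 0.65 ± 0.15 in KO cells (adjusted p = 0.00288), with 98.3% and 96.6% of genes lower. From 0 to 4 h the TPM of Runx1t1 fell, with a change of -0.42 ± 0.15 in WT (adjusted p = 0.0217) and -0.95 ± 0.15 in KO cells (adjusted p = 8.62e-05). The early WT call did not hold with no filter (adjusted p = 0.0504), nor when WT 0 h replicate 2 (-0.29, 0.167) or WT 4 h replicate 1 (0.0823) or 2 (0.0578) was left out. Under median-ratio scaling the early change was a called rise of 0.54 in WT cells (adjusted p = 0.00244) and was not called in KO cells (-0.10, adjusted p = 0.476).

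Over the whole 8 h the TPM of Runx1t1 in WT cells reached 146% of its 0 h mean, against 79.9% in KO cells. The log2 change was 0.52 ± 0.15 in WT (adjusted p = 0.00577), and 93.8% of genes were lower. It was 0.39 without WT 0 h replicate 1 (adjusted p = 0.0638) and 0.30 without WT 8 h replicate 2 (adjusted p = 0.0827). In KO cells it was -0.30 ± 0.15 (adjusted p = 0.0767), and it passed in the compared groups alone (0.0205) and without WT 8 h replicate 1 (0.0396) or 2 (0.0401). TPM is a share of the library, and the typical gene changed by -1.40 in WT and -1.16 in KO cells (medians over all genes). What lies behind the gain of Runx1t1 in TPM was not tested.

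Nras and Hras, GTPases that share most of their switch domain, kept more of their 0 h level than the median gene at 4 and 8 h. Nras had 63.08 and 66.51 TPM in WT libraries untreated, 54.79 and 54.12 after 4 h, and 39.78 and 46.35 after 8 h. KO libraries had 73.28 and 68.58, then 60.38 and 61.15, then 54.11 and 54.3 TPM. The times did not overlap in either genotype. The share left at 8 h was 66.5% in WT and 76.4% in KO cells, above that of 78.3% and 76.3% of genes. The log2 change at 8 h was -0.58 ± 0.08 in WT (adjusted p = 2.21e-05) and -0.38 ± 0.08 in KO cells (adjusted p = 0.000882).

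At 4 h the fall of Nras was -0.25 ± 0.08 in WT (adjusted p = 0.0164) and -0.22 ± 0.08 in KO cells (adjusted p = 0.031). The WT call failed in the compared groups alone (adjusted p = 0.0646) and when WT 0 h replicate 2 (0.0678) or WT 4 h replicate 1 (0.0546) or 2 (0.0708) was left out. The KO call failed without KO 0 h replicate 1 (0.189), KO 4 h replicate 1 (0.114) or 2 (0.0896) and without the trend on expression (0.0634). From 4 to 8 h the change was -0.34 ± 0.08 in WT (adjusted p = 0.00369) and -0.16 ± 0.08 in KO cells (adjusted p = 0.124), and under median-ratio scaling both were called rises, of 0.34 and 0.33.

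Hras had 19.78 and 27.59 TPM in WT libraries untreated, 18.52 and 19.81 after 4 h, and 10.76 and 12.53 after 8 h. KO libraries had 32.48 and 34.06, then 26.43 and 26.73, then 18.73 and 19.41 TPM. In WT cells the 0 h and 4 h libraries overlapped, and those at 8 h lay under both. Its log2 change at 4 h was -0.27 ± 0.13 in WT (adjusted p = 0.0785) and -0.31 ± 0.13 in KO cells (adjusted p = 0.0513). The KO change passed in some alternatives but not in all. It passed in the compared groups alone (limma adjusted p = 0.0041), with the replicate block (0.0311) and with a filter at a mean of 5 TPM (0.0468). The WT value rested on a single library, at -0.50 without WT 0 h replicate 1 (adjusted p = 0.00181) and -0.04 without replicate 2. At 8 h it was -0.95 ± 0.13 in WT (adjusted p = 1.94e-05) and -0.77 ± 0.13 in KO cells (adjusted p = 0.000138). From 4 to 8 h its change was -0.68 ± 0.13 in WT (adjusted p = 0.000794) and -0.46 ± 0.13 in KO cells (adjusted p = 0.012). These late falls were deeper than the medians over all genes, -0.43 in WT and -0.28 in KO cells, with 32.8% and 36.9% of genes lower. The KO call missed the threshold without KO 4 h replicate 2 (0.0543) or KO 8 h replicate 1 (0.0536). Neither late call held under median-ratio scaling, at -0.04 in WT (adjusted p = 0.775) and 0.02 in KO cells (0.864).

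**Figure D3:**
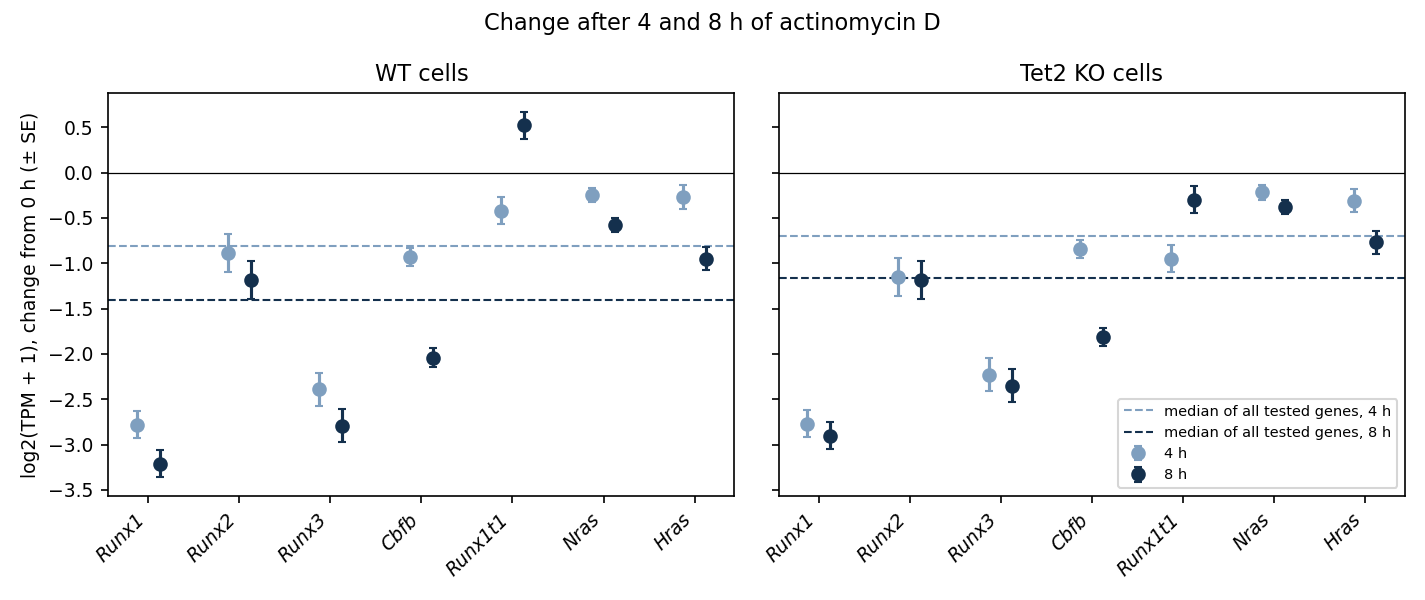
Change in log2(TPM + 1) from 0 h (vertical axis, ± SE) after 4 h (light) and 8 h (dark) for each gene in WT (left) and Tet2 KO cells (right), with dashed lines at the median of all tested genes (WT -0.81 and -1.40, KO -0.70 and -1.16). Runx1 and Runx3 lie far under the medians, and Nras and Hras lie above them. Runx1t1 lies above both medians in WT cells, and in KO cells under the median at 4 h and above it at 8 h.

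Counted together, 6 of the 7 genes passed the threshold at 4 h in WT cells, 0 higher and 6 lower. Of all genes 77.8% passed there, 6.77% higher and 71.0% lower, so the count is near the background. All 7 passed at 8 h in WT cells, 1 higher and 6 lower, where 88.7% of all genes passed, 8.48% higher and 80.2% lower. From 4 to 8 h 5 passed, 1 higher and 4 lower, beside 61.7% of all genes, 6.90% higher and 54.8% lower. In KO cells 6 passed at 4 h, 0 higher and 6 lower, beside 72.8% of all genes, 4.88% higher and 68.0% lower. At 8 h 6 passed, 0 higher and 6 lower, beside 84.9% of all genes, 9.54% higher and 75.4% lower. From 4 to 8 h 3 KO changes passed, 1 higher and 2 lower, beside 52.1% of all genes, 8.97% higher and 43.1% lower. The median log2 change of the 7 genes was -0.89 at 4 h and -1.18 at 8 h in WT cells, beside -0.81 and -1.40 for all genes.

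The direction of several losses depended on the scaling. When libraries were scaled by the median ratio over genes, so that the median gene changes little, Runx1 still fell, with changes of -1.82 at 4 h and -1.67 at 8 h in WT and of -1.88 and -1.57 in KO cells. Runx3 fell too, with -1.52 and -1.53 in WT and -1.39 and -1.15 in KO cells. On that scale Nras rose at 4 h by 0.74 in WT and 0.69 in KO cells and at 8 h by 1.08 and 1.02, and Hras by 0.68 and 0.58 and then 0.64 and 0.60. Runx1t1 rose in WT cells by 2.15 and in KO cells by 1.03. Cbfb still fell at 8 h, by less, with -0.39 in WT and -0.41 in KO cells against -2.04 and -1.81 on TPM, and Runx2 was not called. Among all genes, the calls at 8 h in WT cells were 4201 higher and 4588 lower on that scale, against 946 and 8944 on TPM.

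The comparison of KO with WT cells before actinomycin D asks what level of each transcript the cells held at rest. At 0 h 2 of the 7 genes passed, 1 higher and 1 lower, and of all genes 25.7% passed, 14.3% higher and 11.5% lower. Runx1t1 was lower in KO cells, 16.6 against 29.8 TPM, a log2 difference of -0.80 ± 0.15 (SE; limma adjusted p = 0.00197) with no overlap of the libraries. It stayed past the threshold in every alternative tried, at an adjusted p of at most 0.0248. Hras was higher in KO cells, 33.3 against 23.7 TPM and 0.49 ± 0.13 (adjusted p = 0.0172), also without overlap. The Hras call failed when WT 0 h replicate 1 (0.26, adjusted p = 0.132) or either KO library (0.0635 without replicate 1, 0.105 without replicate 2) was left out. Over all alternatives its adjusted p ranged from 0.00141 to 0.132.

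The other 5 genes did not pass at 0 h. Runx1 differed by 0.09 ± 0.15 (adjusted p = 0.701), with a 95% interval of -0.23 to 0.42. Runx3 differed by 0.15 (interval -0.25 to 0.55), Runx2 by -0.11 (-0.58 to 0.35) and Nras by 0.13 (-0.05 to 0.31). Cbfb differed by 0.21 ± 0.10 (adjusted p = 0.142), and passed without WT 0 h replicate 2 (0.33, adjusted p = 0.0369) and under median-ratio scaling (0.19, adjusted p = 0.0457). The intervals reach the size of the Hras difference for Runx3 and, in the opposite direction, for Runx2, but not for Runx1 or Nras.

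At 4 h 3 genes passed, 2 higher and 1 lower in KO cells, beside 38.6% of all genes, 24.9% higher and 13.7% lower. Runx1t1 was lower by -1.33 ± 0.15 (adjusted p = 3.87e-05). Hras was higher by 0.45 ± 0.13 (adjusted p = 0.0186) and Cbfb by 0.30 ± 0.10 (adjusted p = 0.0298). Both of the latter calls were fragile. Hras missed the threshold without WT 4 h replicate 1 (0.0996) or 2 (0.0524) or KO 4 h replicate 1 (0.0712) or 2 (0.0794), and Cbfb without WT 4 h replicate 1 (0.0783) or 2 (0.137), KO 4 h replicate 2 (0.187) or the trend on expression (0.0563). Runx2 did not pass at -0.37 ± 0.21 (adjusted p = 0.184), and its value was -0.75 without KO 4 h replicate 1 (adjusted p = 0.0143) and 0.00 without KO 4 h replicate 2.

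At 8 h 6 genes passed, 5 higher and 1 lower, beside 49.4% of all genes, 37.3% higher and 12.1% lower, whose median difference was 0.20. Runx1t1 was lower in KO cells by -1.62 ± 0.15 (adjusted p = 3.02e-06), and only 1.08% of genes had a lower estimate. Hras was higher by 0.67 ± 0.13 (adjusted p = 0.00121), Runx3 by 0.59 ± 0.18 (adjusted p = 0.0189), Cbfb by 0.44 ± 0.10 (adjusted p = 0.00268), Runx1 by 0.40 ± 0.15 (adjusted p = 0.0441) and Nras by 0.33 ± 0.08 (adjusted p = 0.00565). In these 5 genes both KO libraries lay above both WT libraries, and Runx2 overlapped.

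Under median-ratio scaling 3 genes passed at 8 h. There Runx1 was at 0.18 (adjusted p = 0.268), Runx3 at 0.50 (0.0572) and Nras at 0.06 (0.435). The differences of Cbfb and Hras stayed past the threshold but shrank, to 0.17 (adjusted p = 0.0404) and 0.42 (0.00444). The Runx1 call was also lost with no filter (0.0843), without the trend (0.0528), with the replicate block (0.0543), in the compared groups alone (0.0985) and without 7 of the 12 libraries taken singly. Without WT 8 h replicate 1 the values of Runx1, Runx3 and Nras were 0.31, 0.34 and 0.22, none past the threshold, and 3 genes passed in all. Runx3 was also lost without KO 8 h replicate 2 (0.0931) and in the compared groups alone (0.0811).

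**Figure D4:**
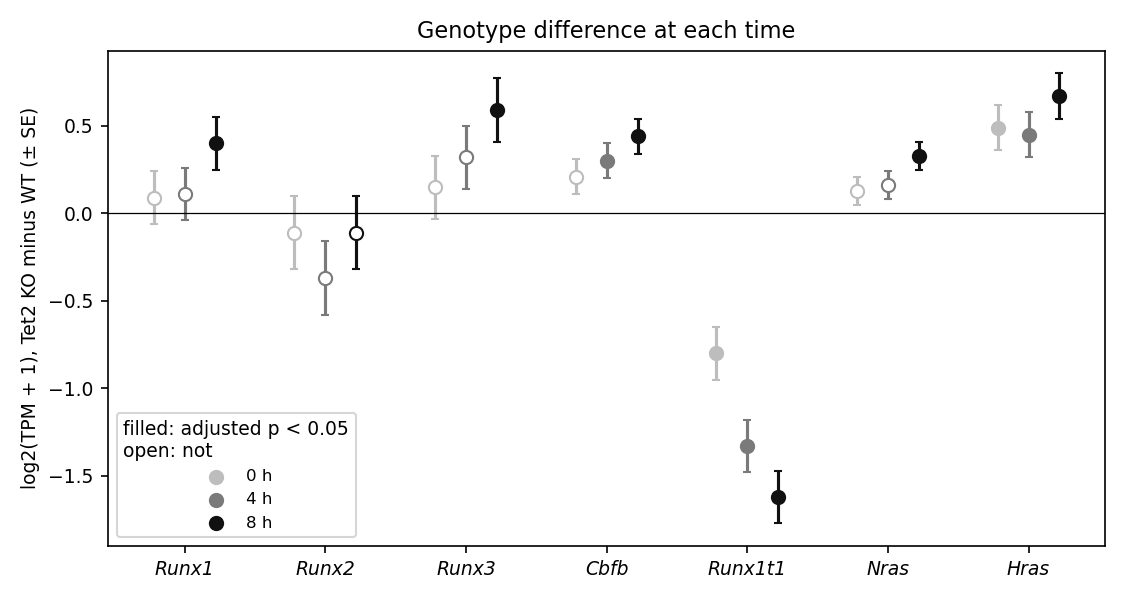
Difference in log2(TPM + 1) between Tet2 KO and WT cells (vertical axis, ± SE) at 0 h (light grey), 4 h (mid grey) and 8 h (black) for each gene, filled where the limma adjusted p was below 0.05. Runx1t1 is lower in KO cells at each time (-0.80, -1.33 and -1.62), and Hras is higher at each time.

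Whether the genotypes differed in the loss itself was tested as the difference of the changes. For the 4 h change 0 of the 7 genes passed by limma, and 1, Runx1t1, had an unadjusted p under 0.05 (-0.53 ± 0.21, adjusted p = 0.251). Every alternative tried also gave 0, and of all genes 0.350% passed, 0.0538% higher and 0.296% lower. Over 8 h 1 gene passed, Runx1t1, lower in KO cells by -0.82 ± 0.21 (adjusted p = 0.0183, interval -1.28 to -0.36). Of all genes 19.9% passed for the 8 h change, 17.3% higher and 2.63% lower, and the median was 0.18.

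The Runx1t1 result missed the threshold with no filter (adjusted p = 0.0506) and without WT 0 h replicate 1 (-0.69, 0.0559), WT 8 h replicate 2 (-0.60, 0.0502) or KO 0 h replicate 1 (-0.76, 0.0672). Under median-ratio scaling it was -1.13 (adjusted p = 0.00282). The remaining genes did not pass, with 0.30 for Runx1 (interval -0.16 to 0.76), 0.44 for Runx3 (-0.13 to 1.01), 0.22 for Cbfb (-0.08 to 0.53), 0.20 for Nras (-0.06 to 0.46), 0.18 for Hras (-0.23 to 0.59) and 0.00 for Runx2 (-0.65 to 0.66). Those intervals are wide, and a miss does not show that the genotypes lose these transcripts alike.

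Ratios within a library do not depend on its scaling and set partner beside partner. They are given as a description. The Runx1 to Cbfb ratio of TPM was 0.558 and 0.601 in WT and 0.546 and 0.522 in KO libraries at 0 h. It was 0.134 and 0.151 in WT and 0.152 and 0.103 in KO libraries at 4 h, and 0.217 to 0.226 and 0.209 to 0.241 at 8 h. Thus Runx1 mRNA was scarcest beside Cbfb mRNA at 4 h in both genotypes, and the genotypes overlapped at 4 and 8 h but not at 0 h. The summed TPM of the 3 RUNX genes was 0.726 to 0.819 of that of Cbfb at 0 h and 0.175 to 0.401 at the later times.

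The Runx1t1 to Runx1 ratio was 0.639 and 0.602 in WT and 0.325 and 0.326 in KO libraries at 0 h. It reached 3.7 and 3.51 against 1.2 and 1.25 at 4 h, and 9.27 and 10.8 against 2.33 and 2.13 at 8 h. Both genotypes thus went from a lower Runx1t1 than Runx1 level to a higher one, with every WT library above the KO libraries of its time. The Hras to Nras ratio was 0.314 and 0.415 in WT and 0.443 and 0.497 in KO libraries at 0 h, 0.338 and 0.366 against 0.438 and 0.437 at 4 h, and 0.27 and 0.27 against 0.346 and 0.357 at 8 h. Nras was the more abundant RAS transcript of this pair in all 12 libraries, and the KO ratio was above the WT ratio at each time.

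**Figure D5:**
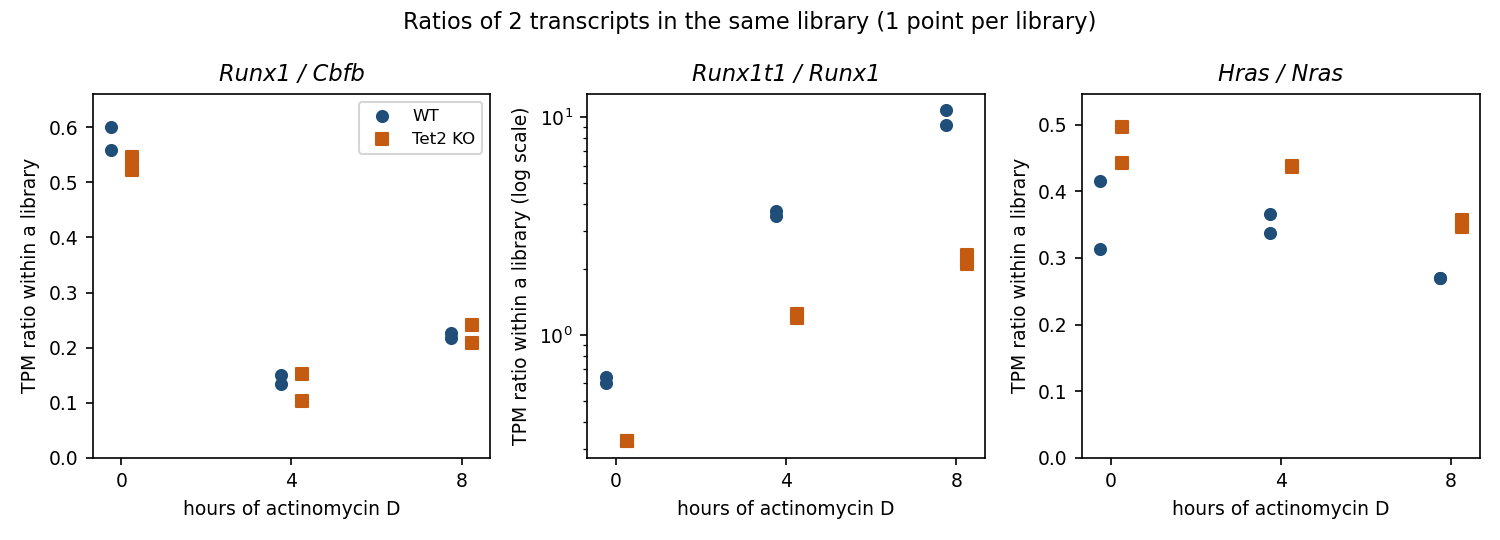
Ratio of TPM of the named pair within a library (vertical axis, linear for Runx1/Cbfb and Hras/Nras, log scale for Runx1t1/Runx1) against hours of actinomycin D, 1 point per library, WT in blue circles and Tet2 KO in orange squares. Runx1t1/Runx1 passes 1 by 4 h in both genotypes and reaches 9.27 and 10.8 in WT cells at 8 h.

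Counting could mix transcripts of related genes, so sequence shared between genes was measured on GENCODE M21 transcripts. In windows of 50 nt, Runx1, Runx1t1, Cbfb and Hras shared 0% with any other gene, Nras 0.792%, Runx2 0.826% and Runx3 1.43%, and the members shared no window among themselves. The longest run in common was 38 nt for Runx1 and Runx3, 26 nt for Runx1 and Runx2, 26 nt for Runx2 and Runx3 and 23 nt for Nras and Hras. On the opposite strand Runx1 overlaps Gm26626 over 106 of its 12025 exon bases, and Runx2 overlaps Runx2os1 over 519 of 8837. The libraries were made with a stranded kit per the labels, but the strand setting of the counting is not given in the sources used here. The genes lie at chr16:92601466-92826149 (Runx1), chr17:44495987-44814797 (Runx2), chr4:135120652-135177990 (Runx3), chr4:13743436-13893649 (Runx1t1), chr8:105170674-105217989 (Cbfb), chr3:103058285-103067914 (Nras) and chr7:141189105-141194005 (Hras) in GRCm38.

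Transcripts with the most similar profiles over the 12 libraries were sought among 7677 genes, by the root mean square difference of centred log2(TPM + 1). The nearest to Runx1 were Asxl2 (0.126), Tprn (0.127) and Fam207a (0.128), and those to Runx3 were Nrf1 (0.142), Cdc14a (0.15) and Zmym2 (0.155). Runx2 was nearest to Brpf3 (0.167), Cic (0.191) and Necap1 (0.192). Cbfb was nearest to Slmo2 (0.0742), Naa50 (0.076) and Ywhaz (0.077), Nras to Dnajc10 (0.0563), Hspa5 (0.0637) and Lypla1 (0.0703), and Hras to Nol6 (0.088), Desi1 (0.0926) and Rtcb (0.0961). Runx1t1 had the most distant neighbours of the 7, namely Tcirg1 (0.209), Entpd1 (0.225) and Cxcl2 (0.241). The libraries share their groups, so such likeness follows mainly the 6 group means.

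The genes around the members were read from lists chosen by role. Of all genes 25.7% passed between genotypes at 0 h, 14.3% higher and 11.5% lower in KO cells, with a median log2 difference of 0.06. For the genotype difference of the 8 h change 19.9% passed, 17.3% higher and 2.63% lower, with a median of 0.18. Each list count at 0 h or for the 8 h change stands against those shares, and nothing is read from a count as particular to its list. Of 13 tested genes for ETO proteins and their corepressors, 1 was higher and 1 lower in KO cells at 0 h, with a median of 0.02. The higher one was Cbfa2t3, an ETO relative, at 13.9 against 5.33 TPM (1.23 ± 0.15, adjusted p = 0.000105), and the lower one was Runx1t1 itself. With a filter at a mean of 5 TPM the list had 0 higher and 1 lower at 0 h. In the 8 h change 5 were higher and 1 lower, among them the histone deacetylases Hdac1 (0.86 ± 0.12), Hdac3 (0.77 ± 0.13) and Hdac2 (0.67 ± 0.16). Hdac1 had a mean of 145 TPM at 0 h and 78.4 at 8 h in WT cells, and 136 and 135 in KO cells.

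Of 21 tested partners of core binding factor, members included, 8 were higher and 1 lower in KO cells at 0 h, beside 14.3% and 11.5% of all genes (median 0.15, all genes 0.06). Higher were Gata2 (60.6 against 23.3 TPM, 1.35 ± 0.15, adjusted p = 4.37e-05) and Tal1 (53.5 against 27.5 TPM, 0.94 ± 0.12), both blood stem and progenitor cell factors, Cebpa, a myeloid factor (0.65 ± 0.12), and Prmt1, an arginine methyltransferase (0.46 ± 0.08). The 8 h change was higher for 3 and lower for 2. Prmt1 was higher by 0.80 ± 0.11, the ETS factor Erg by 1.04 ± 0.20 and the chromatin remodeler Smarca4 by 0.67 ± 0.14, and Cebpa was lower by -1.17 ± 0.17.

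Of 22 genes listed as RUNX1 targets from textbook knowledge, 15 were tested, and 6 were higher and 4 lower in KO cells at 0 h (median 0.14, all genes 0.06). Mpo, the granule peroxidase, was higher at 141 against 31 TPM (2.16 ± 0.12, adjusted p = 8.27e-08) and Itga2b, the platelet integrin CD41, at 30.7 against 6.23 TPM (2.13 ± 0.09, adjusted p = 1.41e-08). Csf1r, the M-CSF receptor, was lower at 62 against 167 TPM (-1.41 ± 0.09) and Elane, neutrophil elastase, at 28.4 against 92.6 TPM (-1.67 ± 0.12). The called targets went both ways. Runx1 mRNA itself did not pass, and a link of RUNX1 or of the fusion to these differences was not tested. Over 8 h the change was higher for 6 and lower for 4, with Ctsg at 1.33 ± 0.09 and Myb at 0.67 ± 0.14, and Gfi1b at -1.57 ± 0.21, which was listed at 0 in WT cells at 8 h. With a pseudocount of 0.1 Gfi1b was at -0.86 (adjusted p = 0.357). The Gfi1b means at 0 and 8 h were 3.62 and 0 TPM in WT and 14.5 and 0.13 in KO cells. Its value for the 8 h change thus largely restates the 0 h difference and does not show a faster loss. Median-ratio scaling gave 4 targets higher and 8 lower for the 8 h change, and 5 passed without KO 0 h replicate 1. The ETO and corepressor list also had fewer calls without that library, 3 in place of 6.

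On the RAS side, the exchange factors that load it with GTP had 2 higher and 2 lower of 6 tested at 0 h (median -0.08). Rasgrp1 was higher in KO cells (10.1 against 2.54 TPM, 1.64 ± 0.15, adjusted p = 9.54e-06) as was Rasgrp3 (2.7 against 0.99 TPM), and Rasgrp2 (-0.44 ± 0.11) and Rasgrp4 (-0.45 ± 0.11) were lower. Rasgrp3 had WT means under 1 TPM at each time (0.99, 0.62 and 0.825), so its call is a description. With a filter at a mean of 5 TPM the list had 0 higher and 2 lower at 0 h. Of 10 tested GTPase activating proteins and SPRED genes, which turn RAS off or help to, 3 were higher and 1 lower (median 0.16). Rasa4 was lower at 2.94 against 9.59 TPM (-1.42 ± 0.15, adjusted p = 3.73e-05), and Rasal3 (0.59 ± 0.10), Spred1 (0.55 ± 0.12) and Dab2ip (0.53 ± 0.17) were higher. In the 8 h change, where 17.3% of all genes were higher, 3 exchange factors were higher and 0 lower, namely Rasgrp2 (0.86 ± 0.15), Rasgrp4 (0.71 ± 0.16) and Sos2 (0.61 ± 0.17), and 1 activating protein, Rasal3 (0.59 ± 0.14), was higher. Omission of single libraries ended the 0 h calls of Rasgrp2 (adjusted p = 0.0671 without WT 0 h replicate 2, 0.103 without KO 0 h replicate 1), Rasgrp4 (0.0824 without WT 0 h replicate 2, 0.0752 without KO 0 h replicate 2) and Dab2ip (0.0794 to 0.187 for each 0 h library). It also ended the Sos2 call for the 8 h change without WT 0 h replicate 2 (0.0851), WT 8 h replicate 1 (0.0866), KO 0 h replicate 1 (0.114) or 2 (0.0908) or KO 8 h replicate 2 (0.0711).

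Downstream of RAS, 0 of 19 tested effectors were higher and 3 lower in KO cells at 0 h (median -0.01). Among the lower ones were the ERK1 kinase gene Mapk3 (142 against 214 TPM, -0.58 ± 0.08, adjusted p = 0.000314) and the PI3K subunit gene Pik3cb (-0.62 ± 0.13). For the 8 h change 3 were higher and 0 lower, among them Pik3cd (0.89 ± 0.13) and Akt1 (0.54 ± 0.10). Of 14 adaptors and scaffolds, Iqgap1 was lower at 0 h (-0.28 ± 0.09) and 0 were higher (median -0.04), while 4 were higher for the 8 h change, among them Ppp1cb (0.76 ± 0.14) and Ptpn11, the phosphatase SHP2 (0.52 ± 0.14). With no filter (limma adjusted p = 0.0677) or without the trend on expression (0.0951) Iqgap1 was not called at 0 h. The Iqgap1 call did not hold without either KO 0 h library (adjusted p = 0.126 and 0.141), WT 0 h replicate 2 (-0.19, 0.195) or KO 4 h replicate 1 (0.0501) or 2 (0.0501). For the 8 h change that of Ptpn11 did not hold without WT 0 h replicate 2 (adjusted p = 0.0701), WT 8 h replicate 1 (0.0699), KO 0 h replicate 1 (0.0738) or 2 (0.0756) or KO 8 h replicate 2 (0.0556). Effectors called for the 8 h change numbered 6 without WT 0 h replicate 1, and adaptors 2 without any 1 of the 5 libraries named for Ptpn11.

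Of 10 enzymes and carriers that place RAS in membranes, 0 were called by limma at 0 h and 2 had an unadjusted p under 0.05 (median 0.14). The 8 h change was higher for 2, the prenyl-binding carrier Pde6d (0.59 ± 0.15) and the farnesyltransferase subunit Fnta (0.43 ± 0.11). Without KO 0 h replicate 2 or KO 8 h replicate 1 neither passed (0.0573 and 0.0613 for Pde6d, 0.0814 and 0.0597 for Fnta), without WT 0 h replicate 2 Pde6d did not (0.0505), without KO 0 h replicate 1 Fnta did not (0.0605), and without WT 0 h replicate 1 the list had 4 calls. Of 14 tested RAS subfamily GTPases, Nras and Hras included, 2 were higher and 1 lower at 0 h (median 0.02). Rras2 was called higher at 1.83 against 0.2 TPM (1.22 ± 0.18) and Rras lower at 14.2 against 25.5 TPM (-0.81 ± 0.14), beside Hras. Rras2 met the filter only through KO libraries, with WT means under 1 TPM at each time, so its call is a description. In the 8 h change Ralb (0.67 ± 0.12) and Rap1a (0.46 ± 0.11) were higher and Rras2 (-1.22 ± 0.25) and Rap2b (-0.73 ± 0.22) lower. Rras2 had little to lose in WT cells, and at 8 h its means were 0.065 TPM in WT and 0.07 in KO cells. Its value for the 8 h change thus restates the 0 h difference and does not show a faster loss. Rap1a did not pass without KO 0 h replicate 2 (0.066), and Rap2b did not without any 1 of the WT 0 h libraries (0.0777 and 0.0612), WT 8 h replicate 1 (0.107), the KO 0 h libraries (0.0926 and 0.105) or KO 8 h replicate 1 (0.0993). Under median-ratio scaling the calls of all genes for the 8 h change were 999 higher and 879 lower, against 1929 and 293 on TPM.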

How the data were processed

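RNA was sequenced in 12 libraries, 2 in each of 6 groups. The authors deposited TPM per gene, and RSEM, STAR and mm10 are named in the submitters' processing notes. Their versions, the annotation and strandedness were not given in the sources used here. Columns sum to 1000000 (departure below 1), so depth is unknown and no counting interval could be given. Of 24589 rows, 8737 were at 0 in every library and 27 had names turned into dates. TPM were used as deposited.

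The 11152 genes that reached 1 TPM in 2 or more libraries were fitted as log2(TPM + 1) with limma 3.58.1 (R 4.3.3), 1 mean per group, eBayes with a trend and Benjamini-Hochberg adjustment at 0.05. This scale understates the change of low genes. The fit was tested on simulated data. Other values came from Python 3.11.15.

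The members, lists and tests were chosen with earlier results of these data known. Named are every member, Tet2, at most 4 called genes per list and contrast (0 h difference, 8 h change) by smallest p, and for each member the 3 most similar genes with a mean of at least 5 TPM, leaving out Gm, Rik and date names. Some listed genes are not reported here. Alternatives were leaving out each library, a replicate block, fitting the compared groups alone, no trend, median-ratio scaling, pseudocounts of 0.1 and 0.5, no filter, and a filter at a mean of 5 TPM. Transcripts came from GENCODE M21 and promoters from RefSeq, both by symbol.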

Additional observations from a re-analysis of the deposited data

Results flagged for a closer look

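Runx1t1 differed between the genotypes in its change over 8 h of actinomycin D. The change was 0.52 ± 0.15 in WT and -0.30 ± 0.15 in KO cells on the log2(TPM + 1) scale, and the difference was -0.82 ± 0.21 (limma adjusted p = 0.0183). WT libraries went from 27.08 and 32.49 TPM at 0 h to 36.82 and 49.92 at 8 h, and KO libraries from 17.34 and 15.94 to 13.4 and 13.19. Over the alternatives the adjusted p ranged from 0.00282 to 0.0672. A gene-level TPM does not tell endogenous Runx1t1 from reads of a fusion transgene, and the part of the latter in the difference was not tested.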

How the results depend on the processing

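With median-ratio scaling the sign of 27 single-gene values turned. For 4 h against 0 h in WT cells the values became 0.54 for Runx1t1, 0.06 for Cbfb, 0.74 for Nras and 0.68 for Hras, and in KO cells 0.07 for Cbfb, 0.69 for Nras and 0.58 for Hras. For 8 h against 0 h they became 0.09 for Runx2, 1.08 for Nras and 0.64 for Hras in WT cells, and 1.03 for Runx1t1, 1.02 for Nras and 0.60 for Hras in KO cells. For 8 h against 4 h they became 0.16 for Runx1, 0.19 for Runx2 and 0.34 for Nras in WT cells, and 0.31 for Runx1, 0.31 for Runx2, 0.24 for Runx3, 0.33 for Nras and 0.02 for Hras in KO cells. The genotype difference of the change became -0.05 for Runx1 and -0.05 for Nras at 4 h, and -0.22 for Runx2, -0.02 for Cbfb, -0.05 for Nras and -0.04 for Hras at 8 h. Of these differences of changes none passed on either scale. The Runx2 difference at 8 h, 0.00 on TPM, was also -0.03 with a pseudocount of 0.1 and -0.01 with 0.5.

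The count of genes called went to 3 at 8 h between genotypes and to 3 from 4 to 8 h in WT cells under median-ratio scaling, and to 0 for the genotype difference of the 8 h change with no filter, where more genes are tested. Leaving out 1 library at a time gave 1 to 3 genes between genotypes at 0 h, 1 to 3 at 4 h and 3 to 6 at 8 h. It gave 4 to 7 at 4 h, 6 to 7 at 8 h and 4 to 6 from 4 to 8 h in WT cells, 5 to 7, 6 to 7 and 2 to 3 in KO cells, and 0 to 0 and 0 to 1 for the genotype difference of the 4 h and 8 h changes. Signs turned in values that had not passed, such as Runx1 between genotypes at 0 h (-0.08 to 0.27) and 4 h (-0.08 to 0.29), Runx2 at 4 h (-0.75 to 0.00) and 8 h (-0.26 to 0.03), Runx1 (-0.32 to 0.05), Runx2 (-0.40 to 0.35) and Runx3 (-0.33 to 0.08) from 4 to 8 h in KO cells, and differences of the 4 h change for Runx1 (-0.17 to 0.20), Runx2 (-0.63 to 0.12), Runx3 (-0.04 to 0.37), Cbfb (-0.03 to 0.21), Nras (-0.02 to 0.07) and Hras (-0.27 to 0.19), and of the 8 h change for Runx2 (-0.14 to 0.15) and Hras (-0.05 to 0.41). In all, 851 of the single-gene values under these omissions kept direction and side, 39 lost and 10 gained a call, and 24 turned sign.

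The replicate numbers of 15 pairs of groups correlated at -0.0834 to 0.0505 in their deviations, so they were not taken as pairs. A replicate block gave 5 genes between genotypes at 8 h, where it lost Runx1, and 7 at 4 h in KO cells, where Hras was added (adjusted p = 0.0311), and it changed no other call of the members. The same alternatives were run for the lists, their named genes and Tet2, a step chosen after seeing the data, and none of those genes changed direction under any of them. Median-ratio scaling ended calls of the 8 h change, among them Fnta (0.192), Pde6d (0.0722), Ptpn11 (0.0652), Rap1a (0.132) and Sos2 (0.0577) and the 0 h call of Dab2ip (0.132), left 0 membrane targeting enzymes and 2 adaptors called for the 8 h change, and gave 5 effectors at 0 h, 1 higher and 4 lower. A mean of at least 5 TPM left Runx2 untested. Depth, unknown here, limits the low values of Runx2 and Runx3.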
